A study of Mus musculus with 8 samples.

Results

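Kinesin motor genes were taken as all genes whose name on the array begins with Kif or Kifc followed by a number. They were 43 of 36163 gene names, covered by 62 probes on 16 chromosomes, and were grouped by known role into 13 mitotic, 4 neuronal transport, 13 other transport and 13 remaining genes. RNA was measured on 8 one-color Agilent arrays in E14Tg2A cells, a mouse ES cell line (labels: strain 129/Ola), as undifferentiated ES cells in serum and LIF (day 0 in vitro, DIV), as floating aggregates likened to the epiblast (ELA) in chemically defined medium without serum or LIF (2 DIV), as neural progenitor cells (NPC) on poly-ornithine and laminin (6 DIV), and as neural precursors (NPC/Neu) after the B27 supplement was left out (10 DIV). At each stage 1 array received total RNA and 1 array received RNA immunoprecipitated from the cytosolic fraction with the anti-pan Ago antibody 2A8 (Ago-RNA), each pooled from 3 experiments. All 8 arrays lay on the same slide. With 1 array per condition, 1 cell line and no replicate, no test between stages could be made, and every value below is a description of these arrays.

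Kinesins are ATP-driven motors that walk along microtubules. Mitotic kinesins build and move the spindle, align chromosomes or carry out cytokinesis, and they are transcribed mainly in dividing cells. Neuronal transport kinesins carry vesicles, organelles and other cargo along axons and dendrites. Argonaute (Ago) proteins bind mRNAs through miRNAs and, in the RNA-induced silencing complex, destabilize them or lower their translation. Ago enrichment (E) was the Ago-RNA signal minus the total RNA signal of a stage on the log2 scale, and ΔE was the later E minus the earlier one.

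Promoters and 3′ UTRs of mitotic and neuronal transport kinesins were searched for short motifs. The neuronal transport counts rest on 3 promoters and on the 3′ UTRs of 4 genes. The cell cycle genes homology region (CHR, TTTGAA on either strand) is a known element of promoters active in late cell cycle, bound by the MuvB core of the DREAM complex. It was found in the promoters of 11 of 12 mitotic kinesins with a RefSeq promoter (250 bases before to 50 after the start, GRCm38.p6), against 20.2% of 27025 genes and 1 of 3 neuronal transport kinesins. These 12 include Kif14 and leave out Kif20a, which has no promoter in the table. In 9 of the 12 its first base lay within 30 bases of the start, against 3.66% of all genes. The 8 other transport kinesins with a promoter had no match. The CCAAT box, bound by NF-Y, was found in 8 of 12 mitotic promoters against 41.1% of all genes, and in none of 3 neuronal transport promoters. The E2F core GCGGGAA was found in none of either group, against 5.29% of all genes. Kifc1 and Kifc5b have nearly the same sequence around their CHR matches and upstream CCAAT boxes, and both are counted as matches. In all, 33 of the 43 genes had a promoter in the table. Of the mitotic CHR matches within 30 bases of the start, those of Kif11, Kif15 and Kif22 lay upstream and the others after it. Windows around these 3 and the neuronal match are shown along the promoter strand, with CHR letters or their reverse complement TTCAAA in capitals:

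Kif11, chr19:37376351-37376380, + strand: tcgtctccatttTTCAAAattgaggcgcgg

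Kif15, chr9:122951050-122951079, + strand: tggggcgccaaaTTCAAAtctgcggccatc

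Kif22, chr7:127042420-127042449, - strand: gggccccggtaaTTCAAAagagagaagcgg

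Kif1a, chr1:93082507-93082536, - strand: tttgacagcctcTTTGAAcattgctcctaa

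Relative to the start, the match began at -19 in Kif11 and Kif15, at -17 in Kif22 and at -44 in Kif1a. Kif15 and Kif22 each had another match further upstream. A match of letters is a description of the sequence and shows no binding.

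The miR-290 and miR-302 clusters give rise to the dominant miRNAs of pluripotent cells. Many of them share 1 seed (bases 2 to 8, in capitals in the mature sequences from RefSeq, GRCm38.p6):

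miR-291a-3p: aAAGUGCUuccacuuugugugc

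miR-294-3p: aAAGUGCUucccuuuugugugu

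miR-302b-3p: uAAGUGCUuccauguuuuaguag

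A match to this seed (AGCACTT, read on the mRNA strand of the longest annotated 3′ UTR, GENCODE vM1, mm9) was found in 0 of 12 mitotic kinesins and in 2 of 4 neuronal transport kinesins, Kif5c and Kif3c, against 15.1% of 15060 genes with a measured E in ES cells and an annotated 3′ UTR. The median 3′ UTR of the mitotic genes was 518 bases, that of the neuronal transport genes 3305 bases, and that of all these genes 1037 bases. Among other transport kinesins 3 of 12 had a match, Kif13a, Kif3b and Kif5b. The matches in Kif5c, Kif3c and Kif13a are shown with the seed match in capitals, because genes with this match differed widely in E in ES cells, from -0.49 in Kif3c to 1.71 in Kif13a:

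Kif5c, chr2:49628643-49628670, + strand: ttagattctttctaaAGCACTTttcccc

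Kif3c, chr12:3405275-3405302, + strand: gtaatttctgctgtcAGCACTTaacaat

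Kif13a, chr13:46845807-46845834, - strand: cccagtgggagaagcAGCACTTtgttcc

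For the let-7 seed match (CTACCTC) the counts were 1 of 12 mitotic genes (Kif11) and 1 of 4 neuronal transport genes (Kif1a), against 9.97% of all these genes. For the miR-9 seed match (ACCAAAG) none of either group had a match, against 12.7%.

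In total RNA the summed signal of 5 pluripotency markers was 17.22 on the log2 scale in ES cells and 15.37 in ELA. It was 11.93 in NPC and 12.88 in NPC/Neu, and all 5 were higher in NPC/Neu than in NPC. The summed signal of 4 neural progenitor markers was 13.10 in ES cells and 17.79 in NPC/Neu. Of 12 neuron markers 11 were on the array, and their summed signal was 15.94 in ES cells, 15.66 in ELA, then 16.61 in NPC and 18.62 in NPC/Neu, with 10 of them above background in ES cells and all 11 later. Over the whole course the neuron markers moved with the neuronal transport kinesins described below. From ES to ELA the markers were mixed: their sum was lower, while 7 of 11 were higher and 4 lower, with a median change of 0.08. All 4 of those kinesins were higher in that step. The part of neuron content in those values was not tested. The 3 primed epiblast markers (Fgf5, Otx2 and Dnmt3b) summed to 17.04, 18.22, 16.01 and 16.05 from ES to NPC/Neu, highest in ELA. The 4 glial markers summed to between 9.19 and 9.87 over the stages, with 2 to 3 above background. The 5 mesendoderm markers summed to 9.38, 9.75, 11.03 and 11.05 from ES to NPC/Neu, with 3 to 4 above background. Of the 4 measured over that interval 2, T and Foxa2, were higher by 1 or more (log2), against 16% of all genes. The ES Ago-RNA array was the brightest, with an upper quartile of raw signal of 3039 against 1060 to 1774 on the other 7. Quantile normalization makes the arrays' distributions equal, and any difference in how much RNA was recovered is lost with it. Spot-to-spot noise, from 399 probes printed 10 times each, gave a pooled SD of 0.13 for E in ES cells, 0.20 for ΔE from ES to ELA and 0.15 for a total RNA change from ES to NPC/Neu. It does not cover variation between cultures or immunoprecipitations.

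Of the 43 kinesin genes 40 were well above background on at least 1 array and 36 on all 8. Kif14 (cytokinesis), Kif2b and Kif4b were never well above background, so Kif14 was the mitotic gene without a value. A difference of 1 or more on the log2 scale was counted as a call.

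In total RNA, the mitotic kinesins changed little as a class through ELA and NPC and were mostly lower in NPC/Neu, while neuronal transport kinesins were higher in NPC/Neu. The median change from ES to NPC/Neu was -0.83 for 12 mitotic genes (range -1.40 to 0.44) and 2.58 for the 4 neuronal transport genes (range 1.47 to 3.61). The median over 25624 genes was -0.06. In this comparison 4 of 12 mitotic genes were lower by 1 or more, against 15.9% of all genes, and none was higher by 1 or more. All 4 neuronal transport genes were higher by 1 or more, against 16% of all genes. Scaling to the 75th percentile in place of quantile normalization gave 8 mitotic genes lower by 1 or more, with 25.4% of all genes. In bulk samples fewer cells of a type and less RNA per cell cannot be told apart.

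**Figure D1:**
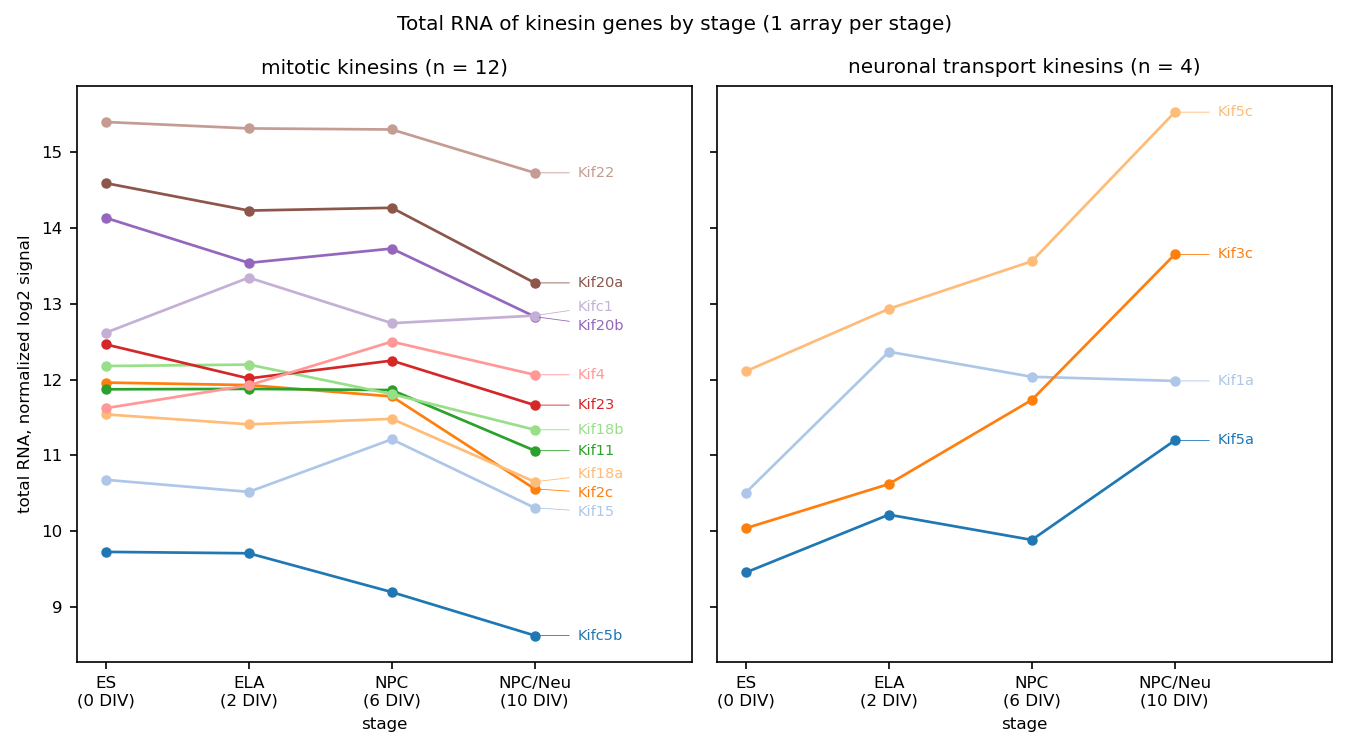
Total RNA (y axis, normalized log2 signal) of the 12 measured mitotic kinesins (left) and 4 neuronal transport kinesins (right) at the 4 stages (x axis), with 1 array per stage, so that no error bar can be drawn. Between NPC and NPC/Neu 11 of the 12 mitotic lines go down, while Kif5c and Kif3c are higher at every step; levels of different probes are not comparable.

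By step, the mitotic medians were -0.06 from ES to ELA, 0.01 from ELA to NPC and -0.69 from NPC to NPC/Neu, where 11 of 12 genes were below 0. From ES to ELA no mitotic gene was called in either direction, against 4.46% of all genes up and 4.37% down. From ELA to NPC again none was called, against 9.9% up and 9.54% down. From NPC to NPC/Neu Kif2c alone was lower by 1 or more, against 3.95% of all genes down, and none was called up, against 5.61%. For the neuronal transport genes the medians were 0.79, 0.15 and 1.62. The genes called up were 1 (Kif1a), 1 (Kif3c) and 3 (Kif5a, Kif5c and Kif3c) of the 4 in the 3 steps.

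Kif2c, a microtubule depolymerase at centromeres, had a total RNA signal of 11.96 in ES cells, 11.93 in ELA, then 11.78 in NPC and 10.56 in NPC/Neu (normalized log2 signal here and below). Its values at the first 3 stages lay within 0.18 of each other, and the drop came in the last step. Kif20a, which carries the chromosomal passenger complex to the midzone, had 14.59, 14.23, 14.27 and 13.28 in the same order. Kif20b, a cytokinesis motor, had 14.13, 13.54, 13.73 and 12.83. Both were lower in ELA than in ES cells by more than the spot SD of a change, and lowest in NPC/Neu. Kifc5b was the other gene lower by 1 or more over the whole course, with a change of -1.10.

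Kif11, the motor that pushes spindle poles apart, had 11.87, 11.88, 11.86 and 11.06. Kif23, the motor of the centralspindlin complex, had 12.46, 12.01, 12.25 and 11.66. Kif22, a chromokinesin that moves chromosome arms, had 15.40, 15.31, 15.30 and 14.73. These 3 genes were lower in NPC/Neu than in ES cells by less than 1, with changes of -0.81, -0.80 and -0.67. Kif18a, which dampens chromosome movements at the metaphase plate, and Kif18b, which shortens astral microtubules, changed by -0.89 and -0.84 over the same interval, and Kif15, which can stand in for Kif11, by -0.37. Kifc1, a minus-end motor that gathers microtubules at the poles, and Kif4, a chromokinesin of the anaphase midzone, were above their ES value in NPC/Neu. Kifc1 had 12.62, 13.34, 12.74 and 12.84, and Kif4 had 11.62, 11.92, 12.50 and 12.06. Scaling to the 75th percentile turned the change of Kifc1 over the whole course from 0.23 to -0.08 and left that of Kif4 at 0.22.

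Partners of the mitotic kinesins were also mostly lower in total RNA. Of 23 listed spindle and cytokinesis genes 22 were on the array. Their median change from ES to NPC/Neu was -0.53, with 6 lower by 1 or more (15.9% of all genes were) and none higher (16% of all genes), and from NPC to NPC/Neu all 22 were below 0. The largest decrease was that of Anln (anillin, an actomyosin ring scaffold), -1.35, and the highest value that of Cenpe, a kinetochore motor outside the Kif naming, 0.21.

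Kif5c, a neuronal kinesin-1 heavy chain, had a total RNA signal of 12.11 in ES cells, 12.93 in ELA, then 13.56 in NPC and 15.53 in NPC/Neu, a difference of 3.42 from the first stage to the last. Kif3c, a partner of Kif3a in a heterodimeric motor, had 10.04, 10.62, 11.73 and 13.65, a difference of 3.61, or 12.2-fold. In both genes every stage was above the one before, and the widest step was the last.

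Kif1a, which carries synaptic vesicle precursors, and Kif5a, the kinesin-1 heavy chain of long axons, each had 2 probes that gave different answers. The Kif1a probe in the 3′ UTR had 12.11, 13.98, 14.56 and 15.12 from ES to NPC/Neu, a change of 3.02. The Kif1a probe in the coding sequence had 8.91, 10.75, 9.51 and 8.84, a change of -0.07. Both Kif1a probes were higher in ELA than in ES cells, by 1.88 and 1.84, and they parted after that. The brighter Kif5a probe had 11.53, 12.52, 12.39 and 14.85, a change of 3.32 with an SD of 0.10 over its own 10 spots. The dimmer Kif5a probe, also in the 3′ UTR, had 7.38, 7.91, 7.37 and 7.54, a change of 0.16. The gene values of 1.47 for Kif1a and 1.74 for Kif5a were means of these probes, and taking the probe with the highest mean signal gave a class median of 3.37 in place of 2.58.

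**Figure D2:**
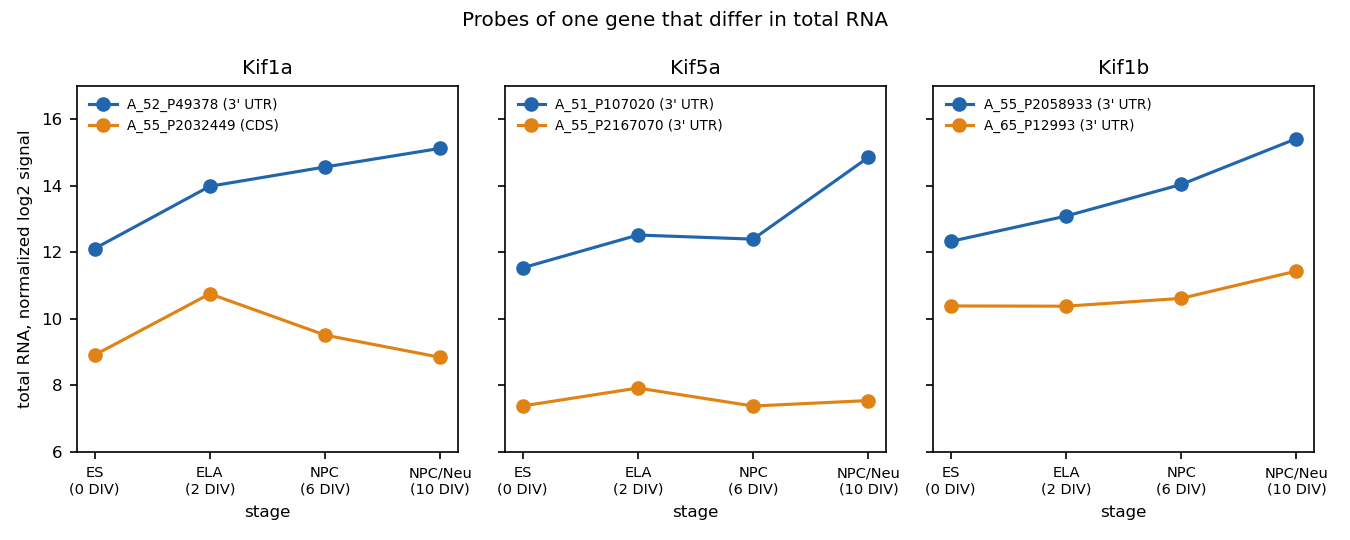
Total RNA (y axis, normalized log2 signal) at the 4 stages (x axis) for each probe of Kif1a, Kif5a and Kif1b, with the probe's place in the transcript in the key. In each gene the brighter probe is higher in NPC/Neu than in ES cells by 3.02 to 3.32, and the dimmer one by -0.07 to 1.05.

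Cargo adaptors and light chains of transport kinesins were also higher at the end of the course. Of 11 listed genes 6 were higher by 1 or more from ES to NPC/Neu, against 16% of all genes, and 1 was lower, near the 15.9% of all genes, with a median of 1.10. Mapk8ip1, a JNK scaffold that binds kinesin light chains, was highest at 2.36, and Klc3, a light chain found mainly in testis, was lowest at -2.00.

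Among the other transport kinesins 5 of 13 were higher by 1 or more from ES to NPC/Neu, against 16% of all genes, and 1 was lower, against 15.9%, with a median of 0.62. Kif21b and Kif21a, which restrain microtubule growth in neurons, led them. Kif21b had total RNA signals of 11.87, 13.21, 14.33 and 15.47 from ES to NPC/Neu, a 12.1-fold difference spread over all 3 steps. Kif21a had 9.78, 11.79, 12.84 and 12.95, a 9.03-fold difference, of which 8.34-fold was reached by NPC. Kif3a, a ciliary and axonal motor, had 11.24, 11.40, 12.91 and 13.40, with the widest step from ELA to NPC.

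Kif1b, a mitochondrial and vesicle motor, was higher by 3.09 and 1.05 in its 2 probes from ES to NPC/Neu, and Kifc2, a minus-end motor of neurons, was higher by 1.29. Kifc3, a minus-end motor of epithelial cells, had 10.49, 8.48, 8.67 and 9.06, so that its level in ELA was lower by 2.01 than in ES cells and stayed below it. The ubiquitous kinesin-1 heavy chain Kif5b was lower by 0.64 from ES to NPC/Neu, against the 3.42 by which its neuronal relative Kif5c was higher.

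Of the remaining genes 3 of 11 measured were higher by 1 or more over the whole course, against 16% of all genes, and none was lower, against 15.9%. Kif26b, an atypical kinesin known from kidney development, was not well above background in ES total RNA, and its level in NPC was at least 3.83 (log2) above ES cells. Its signals were 6.72, 7.54, 10.57 and 9.13, highest in NPC. Kif26a, which lacks motor activity, was higher by 2.16 from ES to NPC/Neu in the 1 of its 2 probes that could be measured in total RNA. Kif12 had 8.81, 8.01, 7.81 and 10.11. Kif6, a motile cilium gene near background, was higher by 1.47 in NPC than in ES cells. In all, 12 of 40 measured kinesins were higher by 1 or more from ES to NPC/Neu, against 16% of all genes, and 5 of 40 were lower, a share no larger than the 15.9% of all genes.

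Ago enrichment of the mitotic kinesins was high in ES cells, near 0 in ELA and NPC, and high again in NPC/Neu. The median E of the 12 genes was 1.29 in ES cells, -0.02 in ELA, then 0.15 in NPC (11 genes) and 0.92 in NPC/Neu. All 12 were above 0 in ES cells (range 0.68 to 1.85), and 8 had E of 1 or more, against 9.6% of 25315 genes. In ELA none of the 12 had E of 1 or more, against 3.89% of all genes, and in NPC none, against 5.34%. In NPC/Neu 6 of 12 had, against 11.2%. The median of all genes lay between -0.04 and 0.05 at each stage. For genes with transcripts of 2000 to 5600 bases, it ran 0.29, 0.04, 0.14 and 0.32 in stage order. With 4000 bases or more it ran 0.70, 0.26, 0.40 and 0.68. The first of these ranges holds the mitotic genes measured. Long genes in general thus also had a higher E at the first and last stage than between, with smaller differences than the mitotic kinesins. Normalizing Ago-RNA and total RNA arrays separately gave 10 of 12 in NPC/Neu in place of 6, with 17.3% of all genes.

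**Figure D3:**
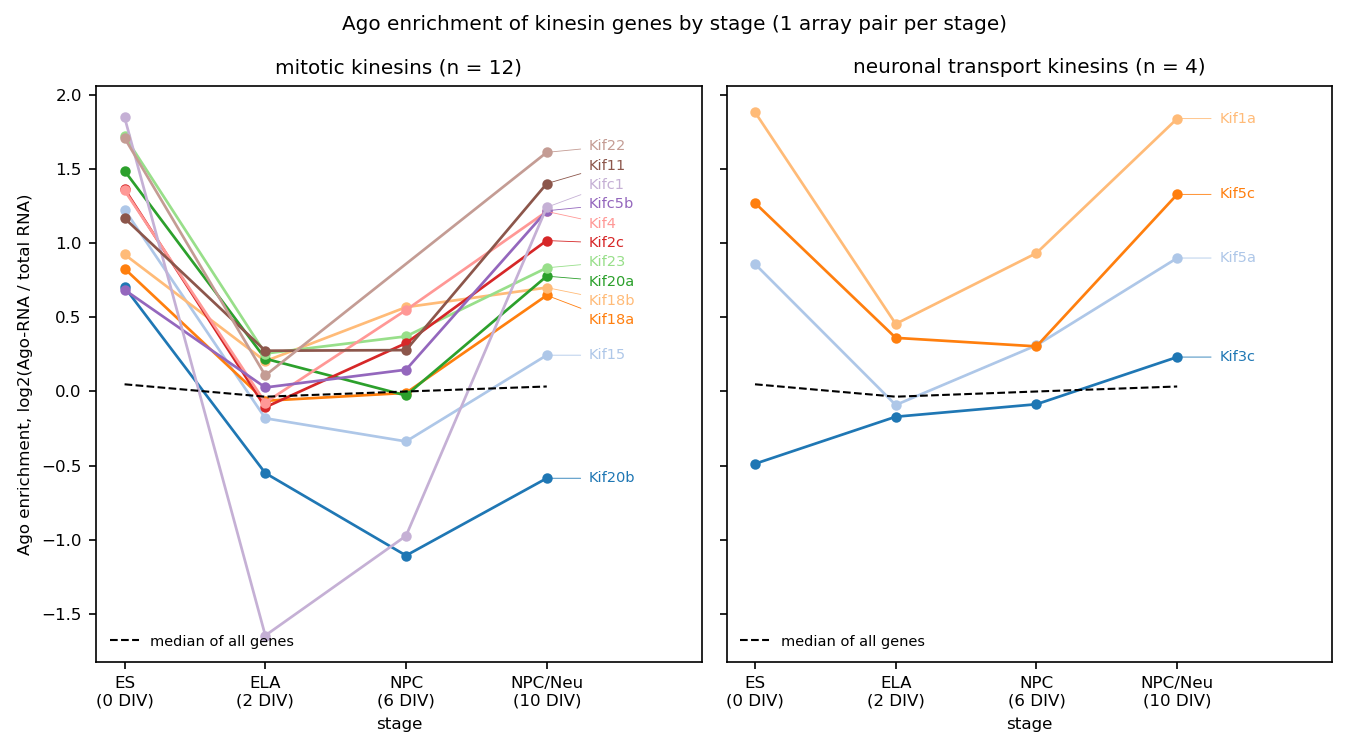
Ago enrichment (y axis, log2 of Ago-RNA over total RNA) of the 12 measured mitotic kinesins (left) and 4 neuronal transport kinesins (right) at the 4 stages (x axis), with the median of all genes as a dashed line; each point rests on 1 array pair, and the line of Kif22 passes over its missing NPC value. Every mitotic line is lower in ELA than in ES cells, most of all Kifc1 (1.85 to -1.64), and all with an NPC value are higher in NPC/Neu than in NPC, while Kif3c stays between -0.49 and 0.23.

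From ES to ELA the variation ΔE was below 0 for 10052 of 19938 genes. It was below 0 for all 12 mitotic kinesins, with a median of -1.34 (range -3.49 to -0.66). It was -1 or less for 8 of them, against 6.82% of 19938 genes. Among all 2298 genes with E of 1 or more in ES cells and a ΔE, the median ΔE was -0.96 and 46.3% were at -1 or less, against a median of -1.45 and 7 of 8 for the mitotic kinesins with such an E. Both sets were chosen by E in ES cells, which ΔE subtracts, so the choice alone favors a ΔE below 0. Over the same interval the total RNA of the 12 mitotic kinesins changed by a median of -0.06, and the Ago-RNA signal was lower in ELA than in ES cells for all 12. From NPC to NPC/Neu ΔE was above 0 for all 11 mitotic kinesins measured, with a median of 0.66. It was above 0 for 10510 of 20120 genes. Among genes with transcripts of 2000 to 5600 bases it was above 0 for 5159 of 7755, and with 4000 bases or more for 3205 of 4119. It reached 1 or more for 3 mitotic kinesins (Kifc1, Kif11 and Kifc5b), against 2.08% of all genes.

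Kifc1 had the lowest ΔE from ES to ELA of all 19938 genes measured, at -3.49. Its Ago-RNA signal was 14.46 in ES cells, 11.70 in ELA, then 11.77 in NPC and 14.08 in NPC/Neu, while its total RNA stayed between 12.62 and 13.34. E of Kifc1 was thus 1.85, -1.64, -0.97 and 1.24. Its Ago-RNA was high at the first and last stage and low at the middle stages, the reverse of its total RNA in ELA. From NPC to NPC/Neu its ΔE of 2.21 was the 8th highest of 20120 genes. Under the 7 other ways of processing tried, its ΔE from ES to ELA lay between -3.60 and -3.47 and ranked from 1 to 3 from the lowest. Those that only change the choice of probes could not move its ΔE, because its 1 probe was well above background on every array. The single Kifc1 probe (mm9 chr17:34018375-34018434, - strand, coding sequence) also matches the coding sequence of Kifc5b in all 60 bases, so the signal may hold RNA of both genes. The Kifc5b probe lies in the 3′ UTR and matched no Kifc1 transcript. It gave E of 0.68, 0.03, 0.15 and 1.22, with a ΔE from ES to ELA of -0.66. Without both genes the mitotic counts were 7 of 10 with E of 1 or more in ES cells, 7 of 10 with ΔE of -1 or less, and 4 of 10 in place of 6 of 12 with E of 1 or more in NPC/Neu.

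Kif22 had E of 1.71 in ES cells, 0.11 in ELA and 1.61 in NPC/Neu, with its NPC value missing because the Ago-RNA spot was irregular. Kif23 had 1.72, 0.26, 0.37 and 0.83 from ES to NPC/Neu, and Kif20a 1.49, 0.22, -0.03 and 0.78. Kif2c had 1.36, -0.11, 0.33 and 1.02, Kif4 1.35, -0.07, 0.55 and 1.21, and Kif15 1.22, -0.18, -0.34 and 0.24. In these 6 genes E was highest in ES cells among the stages measured, and ΔE from ES to ELA lay between -1.60 and -1.27. Scaling to the 75th percentile put Kif20a and Kif22, the brightest of them, below the call limit, with E in ES cells of 0.96 and 0.91 and ΔE of -0.79 and -0.88.

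Kif11 had E of 1.17, 0.27, 0.28 and 1.40, higher in NPC/Neu than in ES cells. Kif18a had 0.83, -0.06, -0.01 and 0.65, and Kif18b 0.92, 0.20, 0.57 and 0.70. Kif20b had 0.70, -0.55, -1.10 and -0.58, so it was the only mitotic kinesin below 0 in NPC/Neu.

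E of the neuronal transport kinesins had a median of 1.06 in ES cells, 0.14 in ELA, then 0.31 in NPC and 1.11 in NPC/Neu. In ES cells 2 of 4 had E of 1 or more (Kif1a and Kif5c), in ELA and NPC none had, and in NPC/Neu the same 2 had. Over all genes the shares were 9.6% in ES cells, 3.89% in ELA, then 5.34% in NPC and 11.2% in NPC/Neu, and 32.4% in ES cells for genes with transcripts of 4000 bases or more, as these 4 have. Kif1a had E of 1.88, 0.46, 0.93 and 1.84, with its 2 probes at 2.10 and 1.66 in ES cells. Kif5c had 1.27, 0.36, 0.30 and 1.33. Kif5a had 0.86, -0.09, 0.31 and 0.90. In these 3 genes E was lower in ELA than in ES cells and highest or nearly so in NPC/Neu, with changes of -1.43, -0.91 and -0.95 from ES to ELA, while their total RNA was higher in ELA than in ES cells by 0.76 or more. Kif3c was the exception, with E of -0.49, -0.17, -0.09 and 0.23 and a ΔE of 0.32 from ES to ELA. Kif5c and Kif3c both had a miR-290 and miR-302 seed match, and their E in ES cells differed by more than the spot SD of 0.13. Whether these matches play a part in E was not tested.

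**Figure D4:**
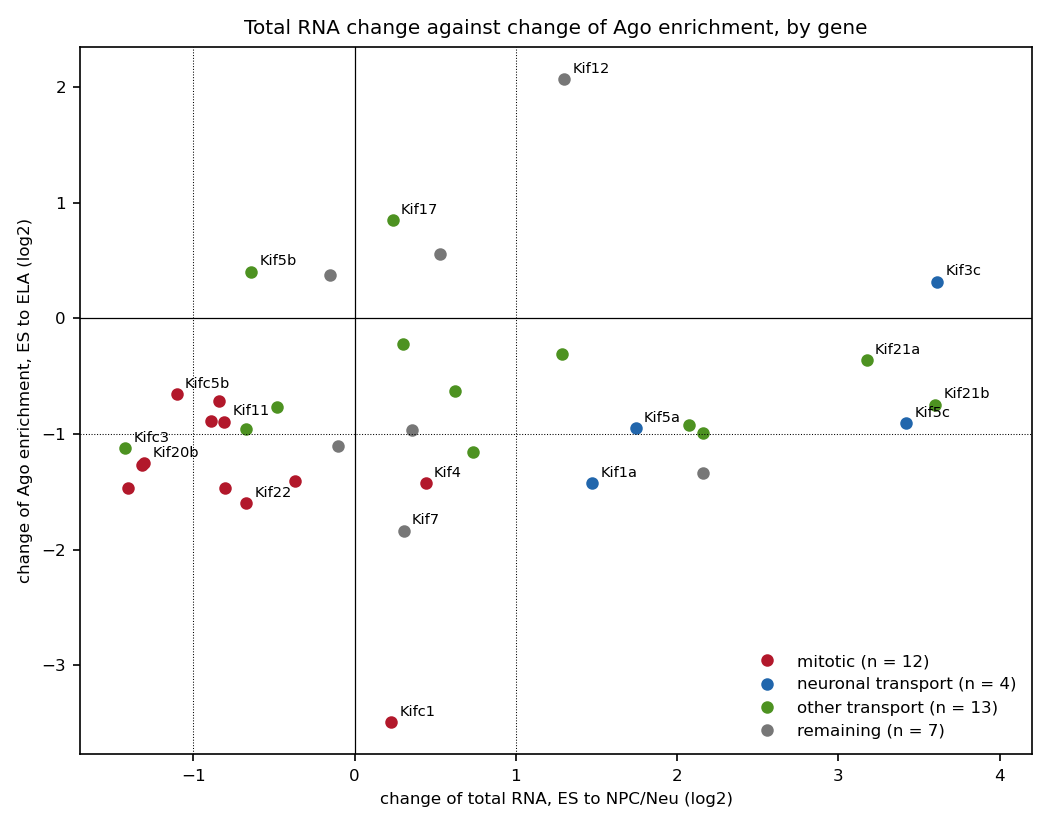
Change of total RNA from ES to NPC/Neu (x axis, log2) against change of Ago enrichment from ES to ELA (y axis, log2) for the 36 kinesin genes with both, colored by class, with dotted lines at the call limit of 1. On the x axis gene values run from -1.40 to 0.44 for mitotic and from 1.47 to 3.61 for neuronal transport genes. Those of Kif1a and Kif5a are means over 2 probes, of which 1 each (-0.07 and 0.16) lies within the mitotic range. On the y axis 30 of the 36 genes lie below 0, against 10052 of 19938 genes and 3099 of 3916 with transcripts of 4000 bases or more. Kifc1 lies apart at -3.49.

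Over all kinesins the median E was 1.06 in ES cells (21 of 40 at 1 or more), 0.20 in ELA (1 of 38), 0.33 in NPC (4 of 39) and 0.91 in NPC/Neu (18 of 40). The shares of all genes at 1 or more were 9.6%, 3.89%, 5.34% and 11.2% in the same order. ΔE from ES to ELA was -1 or less for 14 of 36 genes, against 6.82% of all genes. The 1 gene with E of 1 or more in ELA was Kif5b, at 1.80 there against 1.39 in ES cells, then 0.81 in NPC and 1.28 in NPC/Neu, and its total RNA signal was between 7.46 and 8.10. For comparison, of the 2429 genes of the whole array with E of 1 or more in ES cells, 14.2% still had it in ELA and 59.1% had it in NPC/Neu. The partner lists lay lower than their motors in ES cells, with a median E of 0.51 for the spindle partners (8 of 22 at 1 or more) and 0.67 for the transport partners (2 of 11), against 9.6% of all genes. ΔE from ES to ELA was -1 or less for 8 of the 22 spindle partners (median -0.40) and for 2 of the 11 transport partners (median -0.53), against 6.82% of all genes.

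E moved with transcript length. Over 15540 genes with an annotated transcript, Spearman's rho between E in ES cells and the length of the longest coding transcript was 0.58, and it was 0.35, 0.36 and 0.48 in ELA, NPC and NPC/Neu. These are correlations across genes of the same arrays, and genes are not independent replicates. The kinesins were long, with a median of 4983 bases over 39 genes against 2813 bases, and among them rho in ES cells was 0.18. Among genes with transcripts of 4000 bases or more 32.4% had E of 1 or more in ES cells, and of kinesins that long 14 of 24 had. The mitotic kinesins were the shorter class, with a median of 3396 bases against 6853 for the neuronal transport genes. Over all genes with transcripts of 2000 to 5600 bases, a range that holds the mitotic genes measured, the median was 0.29 for E in ES cells and -0.22 for ΔE from ES to ELA, against 1.29 and -1.34 for the mitotic kinesins. The part of length in the values was not tested.

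**Figure D5:**
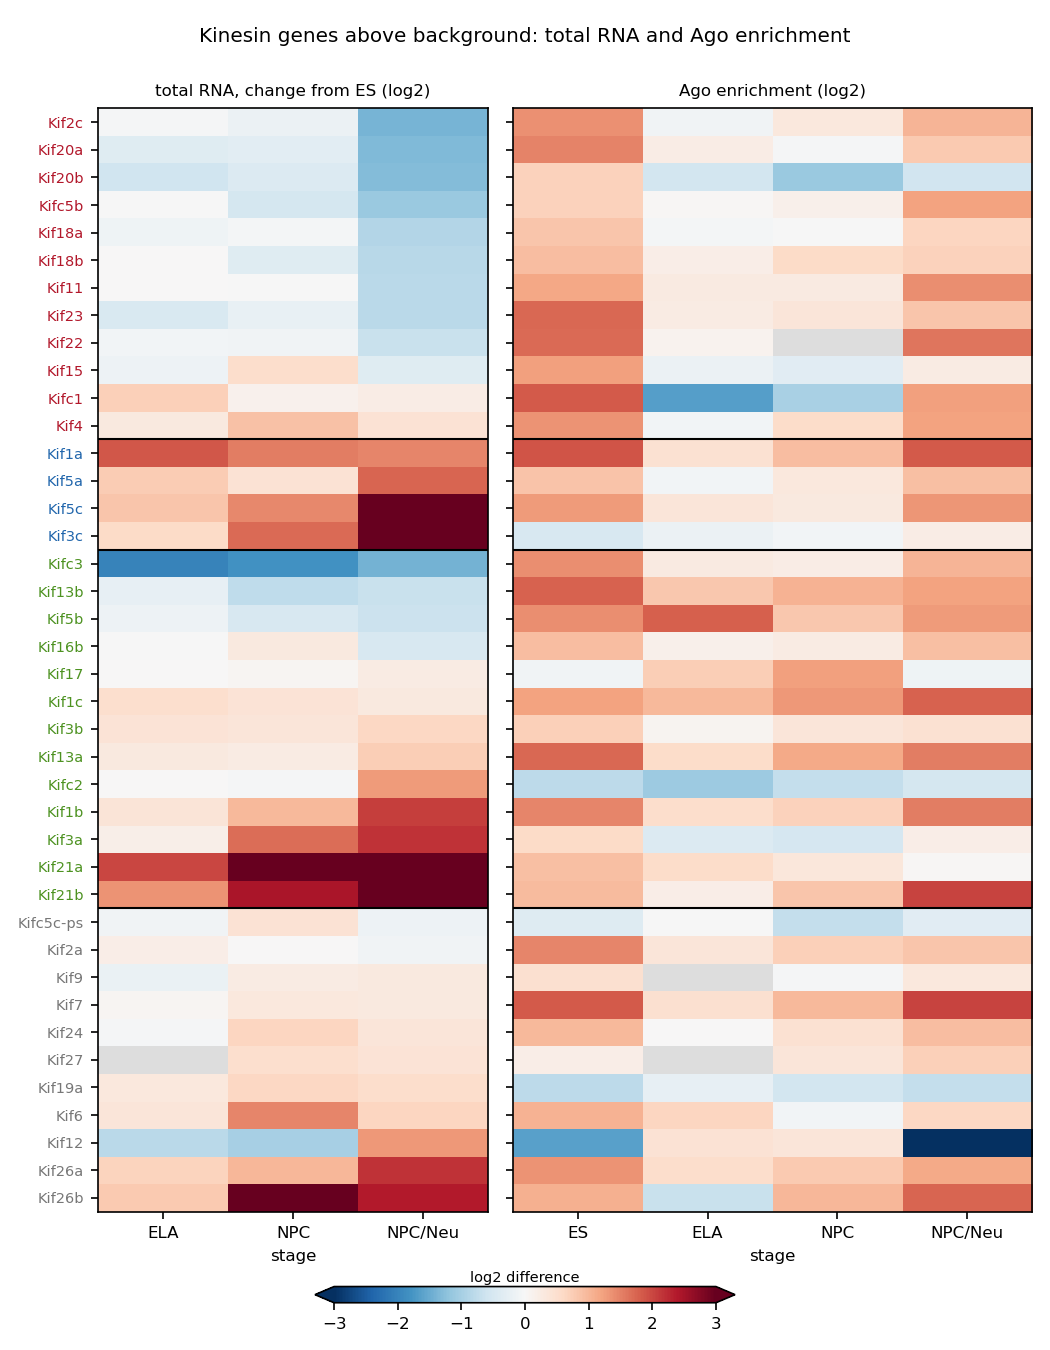
Change of total RNA from ES cells (left) and Ago enrichment (right) on a log2 color scale from -3 to 3 for the 40 kinesin genes above background on any array, one row per gene; label colors mark mitotic (red), neuronal transport (blue), other transport (green) and remaining (gray) genes, and gray cells have no value. In the left panel 10 of the 12 mitotic rows are blue in NPC/Neu and all 4 neuronal transport rows red, and in the right panel ES and NPC/Neu are mostly red and ELA and NPC paler.

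By the study's rule for mRNAs released from Ago between ES and ELA (Ago-RNA above the binding threshold, E of at least 2 in ES cells and at most 0.5 in ELA, and ΔE of -1.5 or less), 1 kinesin was called, Kif7, against 0.278% of all genes. Kif7 acts at the tip of the primary cilium in Hedgehog signaling. Its brighter probe had E of 2.11 in ES cells, 0.28 in ELA, then 0.89 in NPC and 1.66 in NPC/Neu, while its total RNA signal stayed between 9.52 and 10.06. The other Kif7 probe was well above background in total RNA in NPC only. Kifc1 was outside the rule with an E in ES cells of 1.85. These calls depend on the normalization, and 100 genes were called in the main one. With Ago-RNA and total RNA normalized separately E of Kifc1 was 2.29, and Kifc1 in place of Kif7 was the 1 kinesin among 49 genes called. The processed signal gave Kif7, Kif26b and Kif9 among 189 genes with quantile normalization, and Kif7 and Kif26b among 87 with 75th percentile scaling. Kif26b and the Kif9 probe above the binding threshold were not well above background in ES total RNA, which the rule does not ask for. Their E in ES cells is thus a ratio to a background signal.

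Some kinesins ran against the common course. Kif17, a dendritic motor, had E of -0.10, 0.75, 1.23 and -0.14 from ES to NPC/Neu, highest where most kinesins were low. Kif12 had -1.64, 0.43 and 0.37 in ES, ELA and NPC, and in NPC/Neu its Ago-RNA was not well above background, so that E was -3.15 or less there. Kifc2 had -0.79, -1.10, -0.72 and -0.54, and Kif19a had -0.79, -0.24, -0.55 and -0.72. Kif21b had 0.94, 0.19, 0.83 and 2.02, so that its highest E came with its highest total RNA. Kif21a, with a like course of total RNA, had 0.90, 0.54, 0.33 and 0.04.

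Kif13a, an endosome motor, had E of 1.71 in ES cells, 0.56 in ELA, then 1.13 in NPC and 1.53 in NPC/Neu, and carried the seed match shown above. The 3 probes of Kif1c, a motor of vesicles in many cell types, differed in E in NPC/Neu from 1.32 to 2.58, and 1 of them matched transcripts of 8 other genes in 50 or 51 of its 60 bases. Probes of Kif1b differed by 1.32 in E in NPC/Neu, those of Kif26a by 1.04 in E in ES cells and those of Kif6 by 1.64 in E in ELA. The total RNA of 1 of the Kif26a probes was not well above background in ES cells. In Kif6 the Ago-RNA of 1 probe and the total RNA of the other were not well above background in ELA. The spreads of Kif26a and Kif6 thus include background signals. Of the 62 kinesin probes 57 matched a GENCODE vM1 coding transcript exactly, 37 in the 3′ UTR, 17 in the coding sequence and 3 in either depending on the transcript. The 5 without a match were the only probes of Kif4, Kifc2 and Kif2b and both probes of Kifc5c-ps.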

How the data were processed

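The authors deposited spot intensity per array as the scanner software wrote it (Feature Extraction 10.7.3.1 per the file headers, 9.1 in the submitters' processing notes), not normalized between arrays. They are mean and local background intensity, a processed intensity and flags. The number of arrays (1 per condition) limits the precision. With limma 3.58.1 (R 4.3.3), normexp with an offset of 50 was applied to mean and background signals, irregular and control spots were dropped, all 8 arrays were brought to a common distribution by quantile normalization on the log2 scale, and repeated spots were averaged. A gene's value was the mean over its probes well above background on at least 1 array compared; a dim side was set to the higher of its own signal and the lowest signal well above background, which gives a bound. ΔE used probes well above background on all 4 arrays. A 2-component mixture (mclust 6.1.1) of the ES Ago-RNA signals gave the binding threshold, set 3 SD above the mean of its dimmer component. Sequences were matched with Python 3.11.15 and blastn 2.17.0. The procedure was tested on simulated data. Mitotic and neuronal transport genes are all named; other members were named where total RNA or E differed by 1 or more from ES cells, up to 12, or where probes differed by over 1, and other names were chosen after their values were seen. The members, lists and motifs were chosen with earlier results of these data known. Other background corrections, scalings and probe rules were tried as alternatives. Control immunoprecipitations were not used here.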

Additional observations from a re-analysis of the deposited data

How the results depend on the processing

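For 18 class medians and 7 counts, 7 alternatives were tried, and 1 more (leaving out Kifc1, whose probe also matches Kifc5b, and Kifc5b) was added after the data were seen. No called value changed sign. Of 190 values 169 moved by less than the spot SD, or by at most 1.5 times for a count, and 21 moved by more. Scaling to the 75th percentile moved 9 of 25 values by more, and normalizing Ago-RNA and total RNA separately 8 of 25. The probe rules could act on mitotic values only through Kif2c, with 2 probes, and Kif14, never well above background. Each other mitotic gene had 1 probe, well above background on every array, so part of the 169 could not move.

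Scaling the processed signal to the 75th percentile put the median of all genes at -0.28 for E in ES cells and at -0.21 for total RNA from ES to NPC/Neu. Under it the mitotic medians were -1.04 for total RNA from ES to NPC/Neu, -0.16 from ELA to NPC, -0.82 from NPC to NPC/Neu and -1.03 for ΔE from ES to ELA, and 8 mitotic genes in place of 4 were lower by 1 or more in total RNA from ES to NPC/Neu. The neuronal transport medians were 2.35, -0.0089 and 1.49 for the same 3 total RNA changes and 0.91 for E in NPC/Neu. Normalizing Ago-RNA and total RNA separately put the median E of all genes at 0.14 to 0.18. It gave a mitotic median E of 1.70 in ES cells, 0.39 in ELA, then 0.44 in NPC and 1.34 in NPC/Neu, with 10 genes in place of 6 at 1 or more in NPC/Neu, and a neuronal transport median E of 1.41 in ES cells, 0.52 in ELA and 0.64 in NPC. The brightest probe of each gene gave neuronal transport medians of 3.37 from ES to NPC/Neu, 0.60 from ELA to NPC and 1.94 from NPC to NPC/Neu. The processed signal with quantile normalization gave a neuronal transport median E of 1.24 in ES cells. An offset of 16, only probes above background on every array, and all probes of a gene moved none of the 25 by more than this, and without Kifc1 and Kifc5b the widest shift of a count was from 6 to 4 mitotic genes with E of 1 or more in NPC/Neu. The cause of the 21 larger shifts was not tested.

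No paired analysis was possible because each group has 1 array and no test was made. Spot noise is the only error these arrays give, and it leaves out differences between cultures and immunoprecipitations.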
